A study of Mus musculus with 48 samples.

Results

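The inducible heat shock genes driven by heat shock factor 1 (HSF1) were followed in the mouse substantia nigra (SN), the midbrain nucleus whose dopaminergic neurons are lost in Parkinson's disease. The set holds 10 genes, given by name and role: the chaperones and co-chaperones Hspa1a, Hspa1b, Dnajb1, Hsph1, Bag3, Hspb1, Hspa8 and Hsp90aa1, and the factors Hsf1 and Hsf2. All 10 were among the 19601 protein-coding genes of the batch-corrected table and all passed the filter on low counts. Hspa1a and Hspa1b are near-identical copies and were summed, which left 9 features among 14838 genes tested. Bulk RNA-seq was performed on the SN of 48 male C57BL/6J mice, 12 in each of 4 groups, of which the authors kept 42. At 121 days of age each mouse received 1 injection into the right striatum, either of α-synuclein preformed fibrils (PFF), which seed aggregation of the endogenous protein, or of monomeric α-synuclein as control, and was assigned to 21% O2 or 11% O2, with the SN taken 90 to 98 days later. No mouse was uninjected, so every group shared the surgery and the α-synuclein protein, and aggregation starts from endogenous protein on 1 side of the brain. The sources differ on whether 11% O2 was breathed from the injection onwards or only for the later part of that time. In the paper, the experiment with 11% O2 from the injection onwards has these 4 groups. The figure of its delayed experiment lists no monomer group at 11% O2. The kept mice were 11 monomer-injected and 12 PFF-injected mice breathing 21% O2, and 9 monomer-injected and 10 PFF-injected mice breathing 11% O2.

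HSF1 is held inactive by chaperones in unstressed cells. When unfolded proteins occupy those chaperones, HSF1 trimerizes, binds inverted repeats of the sequence nGAAn called heat shock elements, and induces the genes that refold, hold or degrade damaged proteins. Hspa1a and Hspa1b encode the inducible HSP70 and are the classical targets. DNAJB1 is the J-domain partner that delivers substrates to HSP70, HSPH1 is the exchange factor that reopens it, and HSPA8 is the constitutive HSP70 of neurons. HSP70, DNAJB1 and exchange factors of the HSPH family can take apart α-synuclein fibrils in vitro. BAG3 links HSP70 clients to autophagy, HSPB1 is a small heat shock protein that holds unfolded proteins, and Hsp90aa1 encodes the inducible HSP90. HSF2 is a related factor that can form mixed trimers with HSF1.

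Promoter stretches are shown because the heat shock element is the feature that defines HSF1 targets. A promoter entry from RefSeq (assembly GRCm38.p6) was found for 7 of the 10 members, and none for Hspa8, Hsp90aa1 and Hsf1. The 250 bases before each start site were searched for 2 units facing each other, GAANNTTC or TTCNNGAA, which read the same on both strands. Such a pair lay in 4 of the 7 members, among them both Hspa1 copies, and in 12.8% of 32851 promoters. In no member and in 0.466% of promoters lay 3 units in a row. Members were counted as genes, with a match at any start site, and promoters as entries, of which a gene can have several. The stretches are printed 5′ to 3′ on the gene's strand with the matched letters in capitals.
Hspa1a (chr17:34972243-34972270, minus strand): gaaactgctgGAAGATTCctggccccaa
Hspa1b (chr17:34959325-34959352, minus strand): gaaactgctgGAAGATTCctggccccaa
Hspb1 (chr5:135887792-135887839, plus strand): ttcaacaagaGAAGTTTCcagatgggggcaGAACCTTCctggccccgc
Hsph1 (chr5:149636352-149636379, minus strand): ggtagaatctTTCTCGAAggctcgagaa
The matched letters began 104 bases before the start site in both Hspa1 copies and 117 and 97 bases before it in Hspb1. The windows of Dnajb1, Bag3 and Hsf2 held no match, which says only that these letters were not in those 250 bases. The copies Hspa1a (chr17:34969190-34972156) and Hspa1b (chr17:34956436-34959238) shared 247 of those 250 bases (98.8%), and their coding sequences were identical at 1915 of 1926 aligned positions (99.4%). Reads from such copies can be placed on either one, and the counting placed each at its primary alignment, which is why the sum is reported. A gene model on the opposite strand, Gm20481, covers 19.0% of the Hspa1a exon bases and had no counts in any of the 48 mice. All 564 of its exon bases lie within the Hspa1a exon, and reads were counted without regard to strand. The absence of counts therefore cannot show whether Gm20481 was transcribed. Reads over both gene models may also be missing from the Hspa1a counts. The small nucleolar RNA genes Snord14c, Snord14d and Snord14e lie within Hspa8 (chr9:40800984-40810087) on the same strand and overlap bases annotated as exon in it. On the same build (GRCm38, gene spans of GENCODE vM21) Dnajb1 lies at chr8:83608193-83612653, Hsph1 at chr5:149614287-149636376, Bag3 at chr7:128523616-128546981 and Hspb1 at chr5:135887919-135889563. Hsp90aa1 lies at chr12:110690605-110702728, Hsf1 at chr15:76477422-76501913 and Hsf2 at chr10:57486385-57513135.

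Total counts ranged from 12902996 to 17120921 in the 42 mice. The members were well covered: before correction Hspa8 had 22306 to 34035 counts per mouse, Dnajb1 810 to 2174 and the Hspa1 sum 176 to 4275, while Hspb1, the shallowest, had as few as 33. The dissections held SN, since Th, the dopamine-synthesizing enzyme, had mean TPM (transcript level scaled to length and library size) of 571 to 648 over the groups and Slc6a3, the dopamine transporter, 1039 to 1133, with a wide spread from mouse to mouse. The labels give 3 batches, a grouping that the study's methods tie to the day of killing, and not every batch holds every group. Of the kept mice, batch 1 had 4, 4, 4 and 3 (monomer and PFF at 21% O2, monomer and PFF at 11% O2), batch 2 had 7, 4, 0 and 3, and batch 3 had 0, 4, 5 and 4. Differences were tested with edgeR's quasi-likelihood test on the corrected counts of all genes. A gene was called where the Benjamini-Hochberg adjusted p over all genes was below 0.05 and the log2 fold change exceeded 0.25 in size. Members and lists were picked with earlier results of these data known, so their counts beside shares of all genes are descriptions. In bulk tissue, fewer cells of a type and less RNA per cell cannot be told apart.

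The monomer-injected mice at 21% O2 had the highest mean level of all 9 features. Levels per length spanned a wide range. Hspa8 averaged 1791 ± 158.7 TPM (SD, n = 11) in that group, Hsp90aa1 1221 ± 122, Hsph1 206.7 ± 32.8, the Hspa1 sum 169 ± 93.3, Dnajb1 147 ± 22.9, Hspb1 39.0 ± 6.36, Bag3 33.6 ± 4.56, Hsf1 25.1 ± 2.49 and Hsf2 13.8 ± 0.762. With the groups ordered by mean level, the gap between the highest group and the next exceeded the larger of their SDs for the Hspa1 sum, Dnajb1, Hsph1, Hspb1 and Hspa8. In each of these the next group was the PFF-injected mice at 21% O2. The lower 3 groups did not differ from their neighbours in the order by more than that spread, except that Hsp90aa1 was 84.0 TPM higher in PFF mice at 21% O2 than in PFF mice at 11% O2. The 7 chaperone features together made up 0.361% ± 0.0377 of all corrected TPM in monomer mice at 21% O2, 0.306% ± 0.0204 in PFF mice at 21% O2, 0.286% ± 0.0167 in monomer mice at 11% O2 and 0.289% ± 0.0103 in PFF mice at 11% O2.

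**Figure D1:**
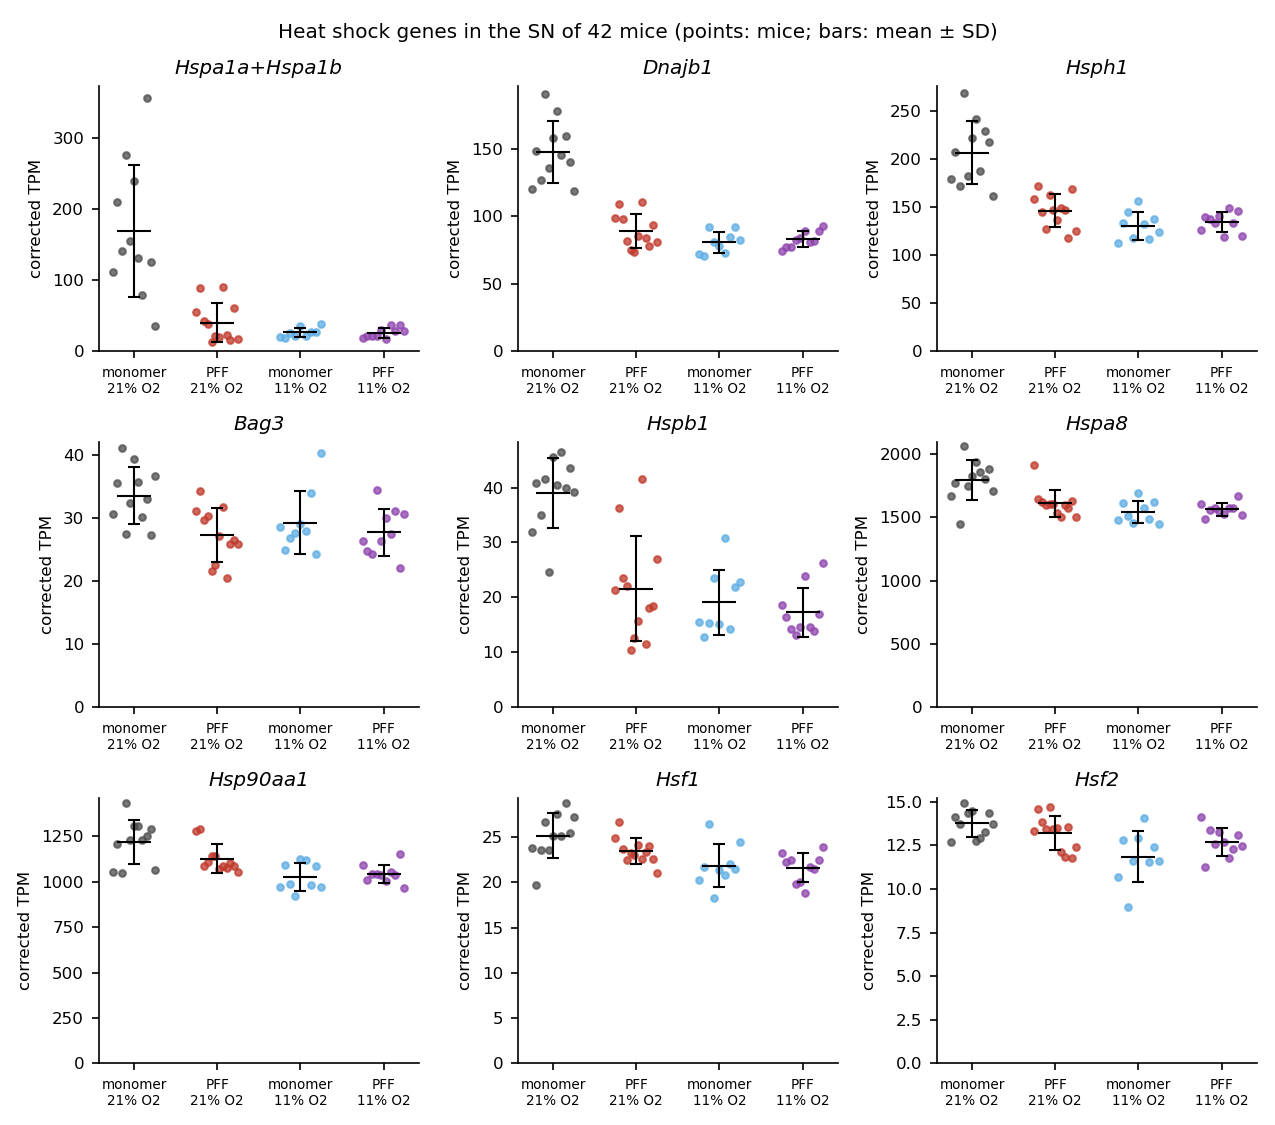
Batch-corrected TPM of the 9 features (one panel each, y axis in TPM) in the 4 groups, with 1 point per mouse and bars for mean ± SD. For Dnajb1 the monomer mice at 21% O2 lay at 118 to 190.5 TPM and the PFF mice at 21% O2 at 73.3 to 111 TPM.

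The first comparison asked what PFF injection did in mice breathing 21% O2. Of the 9 features 5 were called lower in PFF-injected mice (the Hspa1 sum, Dnajb1, Hsph1, Bag3 and Hspb1), against 1.4% of the 14838 genes. All 9 fold changes were below 0, as were 49.6% of all genes, and the median log2 fold change was -0.28 for the members and 0.00085 for all genes. Hspa8 also had an adjusted p below 0.05 but a smaller fold change, so 6 of 9 fell by that rule alone, against 3.7% of genes.

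The inducible HSP70 had the lowest log2 fold change of all genes tested. The Hspa1 sum was 35.4, 141 and 356 TPM (lowest, median and highest of 11) in monomer mice and 13.0, 30.9 and 89.9 TPM (of 12) in PFF mice. All 12 PFF mice lay below the monomer median and 6 lay below the lowest monomer mouse, so the groups overlapped. The log2 fold change was -2.04 (adjusted p = 6.65e-06, SE 0.281), a 4.11-fold lower level. Counted separately, the log2 fold change was -1.60 for Hspa1a and -2.39 for Hspa1b, both called. Hspa1a made up 38.4% ± 3.33 of the summed TPM before correction in monomer mice at 21% O2 (range 32.6% to 43.2%) and 48.7% ± 8.31 in PFF mice at 21% O2. It made up 55.2% ± 3.26 in monomer and 58.5% ± 3.76 in PFF mice at 11% O2, whose lowest value was 49.4%. The split between copies is uncertain for the reason given above and was not tested.

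The HSP70 partners fell less but varied less between mice. Dnajb1 was the only member whose groups did not overlap, which held for 4 of 14838 genes in this direction (0.027%): the highest PFF mouse had 111 TPM and the lowest monomer mouse 118. Its log2 fold change was -0.71 (adjusted p = 2.41e-09, SE 0.0691). Hsph1 was 162.2, 207.9 and 268 TPM in monomer mice and 118, 147 and 172.2 TPM in PFF mice, with 10 of 12 PFF mice below the lowest monomer mouse. It fell by 0.48 on the log2 scale (adjusted p = 7.51e-06, SE 0.0666). Bag3 was 27.3, 33.1 and 41.1 TPM in monomer mice and 20.6, 26.9 and 34.3 TPM in PFF mice, and the groups overlapped for most mice. Its log2 fold change of -0.28 (adjusted p = 0.0376, SE 0.0876) lost the call without any 1 of 12 mice, PFF replicates 5, 6, 7, 9, 10 and 12 and monomer replicates 2, 3, 6, 7, 9 and 12, with adjusted p of 0.0512 to 0.0720.

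Hspb1 was 24.7, 40.4 and 46.5 TPM in monomer mice and 10.5, 19.95 and 41.5 TPM in PFF mice. Of the PFF mice, 9 of 12 lay below the lowest monomer mouse, and the highest reached the monomer median. The log2 fold change was -0.84 (adjusted p = 0.00144, SE 0.170). With the 6 left-out mice returned and batch fitted as a covariate, it was -0.76 with an adjusted p of 0.154, and 1 of those mice, a monomer mouse at 21% O2, had 109 TPM of Hspb1 before correction against 22.4 to 45.5 in the 11 kept ones.

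Hspa8, Hsp90aa1 and the factors had smaller fold changes than the other members. Hspa8 was 1447, 1799 and 2063 TPM in monomer mice and 1501, 1603 and 1909 TPM in PFF mice, and its log2 fold change was -0.14 (adjusted p = 0.0304, SE 0.0402). No PFF mouse lay below the lowest monomer mouse. Hsp90aa1 had a log2 fold change of -0.10 (adjusted p = 0.189). Hsf1 had one of -0.08 (95% interval -0.18 to 0.01, adjusted p = 0.328) and Hsf2 one of -0.04 (-0.14 to 0.06, adjusted p = 0.667), so a change in the mRNA of either factor beyond those intervals was not found. HSF1 is controlled mainly after translation, and its activity was not measured here.

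The cold-inducible RNA-binding protein genes moved the other way beside these members. Cirbp rose by 0.62 (adjusted p = 1.44e-06, SE 0.0789) and Rbm3 by 0.31 (adjusted p = 0.000363, SE 0.0553) on the log2 scale. Both of 2 listed genes were thus called higher, against 2.28% of genes. The 2 were listed with earlier results of these data known, so this count is a description and not a test. Their summed level was 158 to 247 TPM in monomer mice and 220 to 325 TPM in PFF mice at 21% O2. Their part in the result was not tested. None of the 35 marker genes of dopaminergic neurons, neurons, astrocytes, oligodendrocytes, microglia, endothelium and choroid plexus was called in this comparison, and no marker was at 0 in every mouse of a group.

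The batches were examined before correction, where each mouse keeps its own measured level. The Hspa1 sum was 96.3, 278, 145 and 413 TPM in the 4 monomer mice of batch 1 at 21% O2 and 73.9, 147, 49.7 and 42.5 TPM in its 4 PFF mice. In batch 2 the 7 kept monomer mice had 84.7 to 221 TPM and the 4 PFF mice 23.1, 28.6, 27.5 and 83.2 TPM. In batch 3 the 4 PFF mice had 24.0, 19.4, 47.7 and 19.9 TPM with no monomer mice at 21% O2 beside them. The mean of the PFF mice was thus highest in batch 1 (78.3 TPM, against 40.6 and 27.8 TPM in batches 2 and 3). Single PFF mice of batches 2 and 3 (83.2 and 47.7 TPM) reached into the batch 1 range. Within batch 1 the range of the PFF mice overlapped that of the monomer mice.

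Within batch 1 the log2 fold change of the Hspa1 sum was -1.55 (adjusted p = 0.227) and that of Dnajb1 -0.54 (adjusted p = 0.241), and 0 of 9 features were called lower, against 8 genes (0.0542%). Within batch 2 the Hspa1 sum fell by 1.84 (adjusted p = 0.00394), Dnajb1 by 0.76 (adjusted p = 0.000582), Hsph1 by 0.46 (adjusted p = 0.00309) and Hspb1 by 0.95 (adjusted p = 0.0252), which made 4 of 9 called lower, against 1.8% of genes. Before correction the 2 injection groups did not overlap for 1 of 9 features in batch 1 (Dnajb1), against 5.86% of genes, and for 4 of 9 in batch 2 (the Hspa1 sum, Dnajb1, Hsph1 and Hspa8), against 3.23%. For Hspb1 the 4 monomer mice of batch 1 at 21% O2 had 22.3 to 31.7 TPM and its PFF mice 16.4 to 32.9 TPM, while in batch 2 the ranges were 29.9 to 45.5 and 13.3 to 38.4 TPM. Bag3 stood at 20.5 to 31.9 TPM in all 15 kept mice of batch 1, at 21.2 to 39.8 TPM in batch 2 and at 19.2 to 40.8 TPM in batch 3. The correction also reshaped single mice: monomer replicate 12 went from 84.7 to 35.4 TPM of the Hspa1 sum, replicate 9 from 203.9 to 356 and replicate 4 from 413 to 276.

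**Figure D2:**
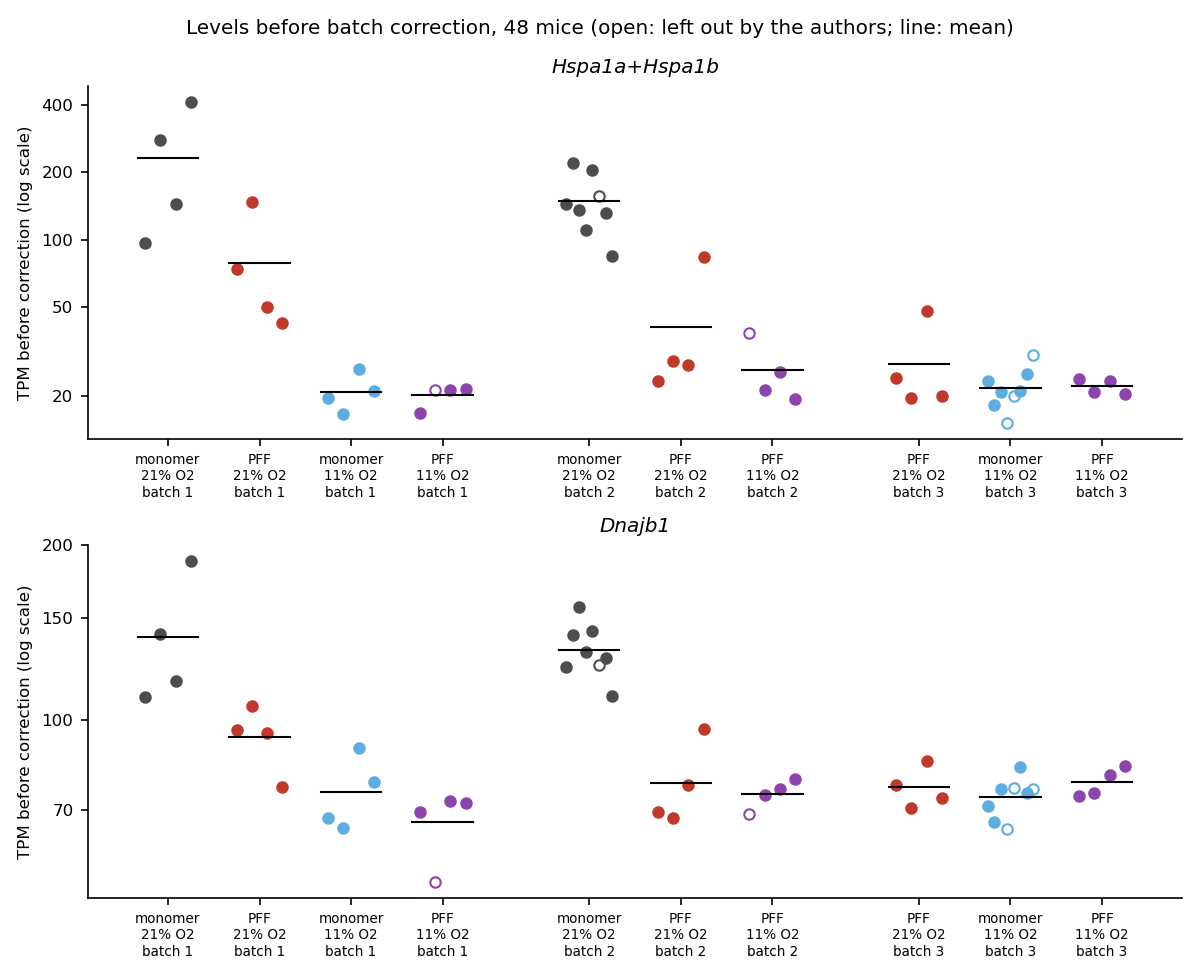
TPM before batch correction of the Hspa1 sum and Dnajb1 for each mouse, by batch and group (1 point per mouse, y axis in TPM). In the Hspa1 panel every monomer mouse at 21% O2 lay between 84.7 and 413 TPM and every mouse at 11% O2 between 15.1 and 38.0 TPM, and the PFF mice at 21% O2 of batch 1 reached 147 TPM.

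The same injection comparison was made in mice breathing 11% O2. None of the 9 features was called, and neither was any of the 14838 genes (0%). At an unadjusted p below 0.05 the test picked 581 genes (3.92%) and no member, and DESeq2 called 1 gene and no member. The Hspa1 sum was 19.0, 25.3 and 39.1 TPM in 9 monomer mice and 17.7, 25.04 and 37.2 TPM in 10 PFF mice, ranges that nearly coincide. Its log2 fold change was -0.0027 with a 95% interval of -0.65 to 0.64. Dnajb1 was 70.5, 81.3 and 92.3 TPM against 74.4, 82.2 and 92.6 TPM, with an interval of -0.09 to 0.21. That interval lies apart from the one at 21% O2, which ran from -0.85 to -0.57. The interval of Hspb1 was wider, from -0.52 to 0.25. The log2 fold change was 0.06 for Hsph1, -0.06 for Bag3, 0.03 for Hspa8, 0.04 for Hsp90aa1, 0.00047 for Hsf1 and 0.11 for Hsf2. The median log2 fold change over the members was 0.033 and that of all genes -0.00058.

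The third comparison asked what 11% O2 did in monomer-injected mice. It used the same 11 monomer mice at 21% O2 as the first, so the values of both are set side by side and no overlap between them is given. Of the 9 features 4 were called lower, against 378 genes (2.55%), and by adjusted p alone 8 of 9 were lower, against 6.2% of genes. All 9 fold changes were below 0, as were 52.1% of genes, with a median of -0.24. The Hspa1 sum fell by 2.65 on the log2 scale (adjusted p = 2.09e-07, SE 0.323), again the lowest fold change of all genes tested, a 6.27-fold lower level. Its highest mouse at 11% O2 had 39.1 TPM, so 10 of the 11 mice at 21% O2 lay above all of them.

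Dnajb1 fell by 0.87 (adjusted p = 4.61e-11, SE 0.0756) and Hsph1 by 0.66 (adjusted p = 2.67e-08, SE 0.0725), and both had groups that did not overlap, which held for 0.135% of genes in this direction. Hspb1 fell by 1.02 (adjusted p = 0.000199, SE 0.186), with mice at 11% O2 at 12.8, 15.6 and 30.8 TPM. Without the correction, in a fit of all 48 mice that held batch as a term, Hspb1 was at -0.66 (adjusted p = 0.267). Hsp90aa1 was at -0.24 (adjusted p = 0.000574), Hspa8 at -0.21 (adjusted p = 0.000856), Hsf2 at -0.21 (adjusted p = 0.00769) and Hsf1 at -0.20 (adjusted p = 0.00927), which is under the fold threshold for each. Over the groups Hsp90aa1 was 1048, 1233 and 1436 TPM in monomer mice at 21% O2 and 921, 990 and 1128 TPM at 11% O2, with 5 of 9 mice at 11% O2 below the lowest at 21% O2. Hsf1 was 19.7, 25.2 and 28.8 TPM against 18.2, 21.4 and 26.5 TPM, and Hsf2 was 12.7, 13.7 and 14.9 TPM against 8.97, 11.6 and 14.1 TPM. Hsp90aa1 passed the fold threshold without any 1 of 7 mice (monomer replicates 2, 5, 6 and 10 at 11% O2, or 1, 3 and 12 at 21% O2). Bag3 had a log2 fold change of -0.19 (adjusted p = 0.172). Only batch 1 held both groups, with 4 mice each, and there 5 of 9 were called lower, against 1.06% of genes: the Hspa1 sum at -3.47, Hspb1 at -1.20, Dnajb1 at -0.88, Hsph1 at -0.70 and Hsf2 at -0.29. Before correction 7 of 9 features did not overlap between those mice, all but Bag3 and Hsf1, against 4.84% of genes.

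Endothelial markers were higher at 11% O2 in both injection groups. In monomer mice all 5 were called higher, against 4.68% of genes, by 0.48 (Esam) to 0.74 (Cldn5) on the log2 scale. Their summed level was 106 to 167.2 TPM in monomer mice at 21% O2 and 161.8 to 303 TPM at 11% O2. In PFF mice at 21% O2 the endothelial sum had a lowest value of 99.6 and a median of 141.9 TPM, and its highest mouse lay within the range of monomer mice at 11% O2. In PFF mice at 11% O2 it was 157.7 to 212.1 TPM. Against PFF mice at 21% O2 all 5 fold changes were above 0, with a median of 0.36 on the log2 scale. Of these 2 were called higher, against 0.438% of genes. Among 5 oligodendrocyte markers 1 was called higher at 11% O2 in monomer mice. Cirbp rose by 0.62 at 11% O2 in monomer mice (adjusted p = 2.20e-06, SE 0.0841). There Rbm3 was at 0.22 (adjusted p = 0.00906, SE 0.0594), under the fold threshold, so 1 of the 2 cold-inducible genes was called higher. Their part in the result was not tested.

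In PFF-injected mice 11% O2 was set against 21% O2. None of the 9 features was called lower, against 21 genes (0.142%), although 8 of 9 fold changes were below 0, as were 53.2% of genes. The Hspa1 sum had the largest of these, -0.61 (adjusted p = 0.464, SE 0.303), with a 95% interval of -1.21 to -0.02. This value depends on the batch correction. On the counts before correction it was -1.07 with batch as a covariate (adjusted p = 0.0364) and -1.18 without (adjusted p = 0.0312), both of which would be called. Within batches it was -1.98 in batch 1 (adjusted p = 0.323), -0.85 in batch 2 (adjusted p = 0.582) and -0.34 in batch 3 (adjusted p = 0.996). The change was largest in the batch whose PFF mice at 21% O2 had the highest mean. The PFF mice at 11% O2 had means of 19.7, 22.0 and 22.0 TPM in batches 1, 2 and 3. The order of the changes thus mostly restates the means at 21% O2. In the reported fit the other features were Hspb1 at -0.31, Hsph1 and Hsf1 each at -0.12, Hsp90aa1 at -0.11, Dnajb1 at -0.10, Hsf2 at -0.06, Hspa8 at -0.04 and Bag3 at 0.03. At an unadjusted p below 0.05 the Hspa1 sum, Hsp90aa1 and Hsf1 were lower, 3 of 9 features against 10.7% of genes in either direction.

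The interaction tested whether the injection changed the members differently at the 2 O2 levels. Of the 9 features 3 were called, all with a less negative change at 11% O2, against 1.09% of genes in that direction. The difference was 2.04 on the log2 scale for the Hspa1 sum (adjusted p = 0.00633, SE 0.432), the highest of all genes tested, 0.77 for Dnajb1 (adjusted p = 2.29e-05, SE 0.104) and 0.54 for Hsph1 (adjusted p = 0.00197, SE 0.0993). Hspb1 had a difference of 0.70 (adjusted p = 0.149, SE 0.261), Bag3 one of 0.22 (adjusted p = 0.435), Hspa8 one of 0.17, Hsf2 one of 0.15, Hsp90aa1 one of 0.13 and Hsf1 one of 0.08. A different response of these 6 was not shown. Only batch 1 held all 4 groups. There the differences were 1.49 for the Hspa1 sum (adjusted p = 0.521), 0.48 for Dnajb1 and 0.53 for Hsph1, and 0 of 9 features were called, against 0.0745% of genes. Batch 2 held no monomer mice at 11% O2 and batch 3 none at 21% O2, so the interaction has no value within them.

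**Figure D3:**
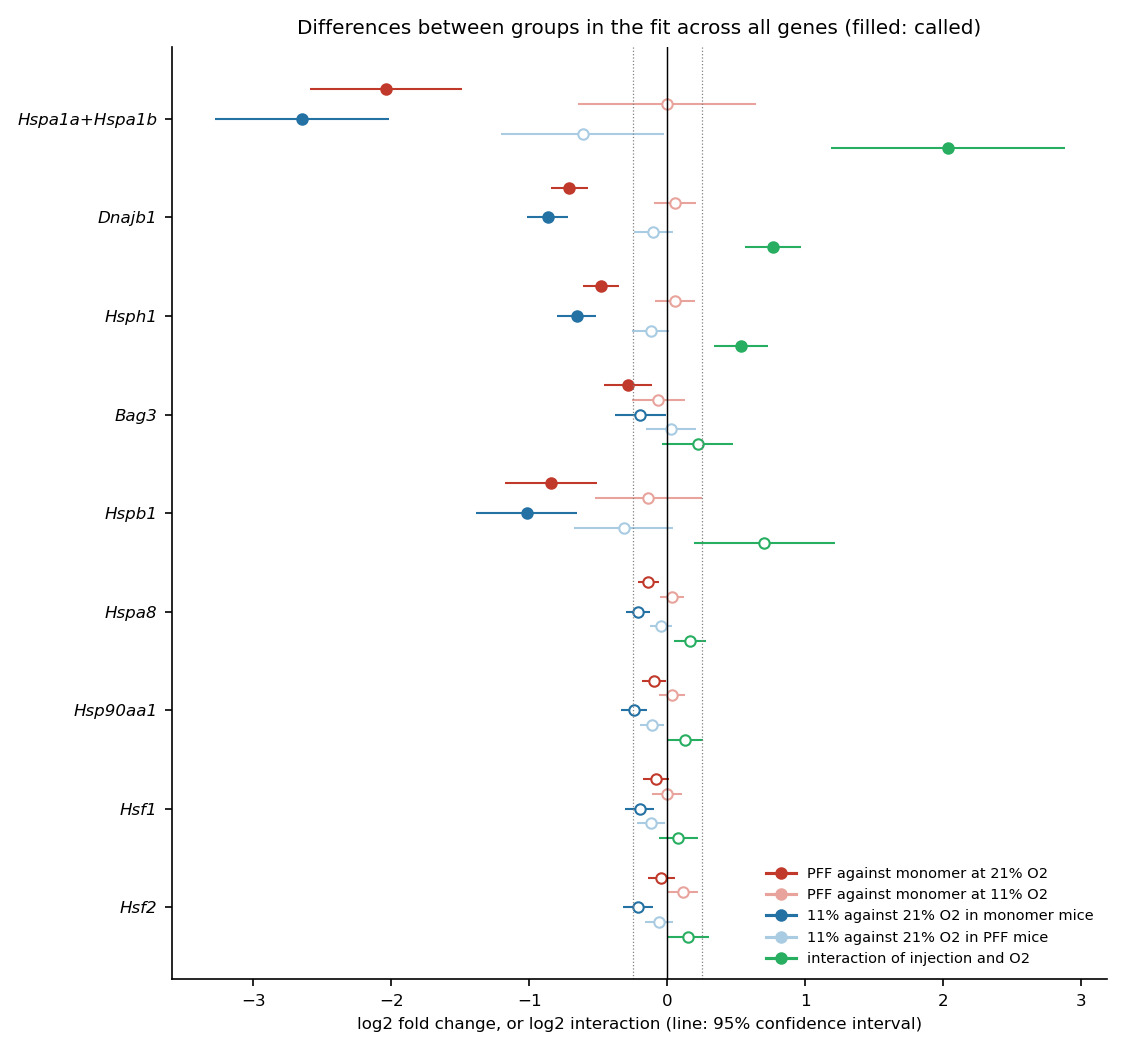
Log2 fold change of each of the 9 features in the 4 comparisons and the interaction (lines are 95% intervals, filled points were called, dotted lines mark 0.25 on either side of 0). The Hspa1 sum lay at -2.04 for PFF at 21% O2, at -0.0027 for PFF at 11% O2 and at -2.65 for 11% O2 in monomer mice.

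Before correction the contrast between monomer mice at 21% O2 and all mice at 11% O2 was complete for several members. The Hspa1 sum was 84.7 to 413 TPM in all 12 monomer mice at 21% O2, the left-out one included, and 15.1 to 38.0 TPM in all 24 mice at 11% O2. The highest mouse at 11% O2 and the lowest monomer mouse at 21% O2 were at 89.5 and 110 TPM for Dnajb1, 146 and 153 TPM for Hsph1, and 1520 and 1572 TPM for Hspa8. These 4 of 9 features did not overlap, against 19 of 14838 genes (0.128%). This grouping of mice was added after the values were seen.

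The remaining genes known as HSF1 targets were taken from a list of 18. In PFF mice at 21% O2 all 18 fold changes were below 0, with a median of -0.13, and 2 were called lower, against 49.6% of genes below 0 and 1.4% called lower: Chordc1, an HSP90 co-chaperone, by 0.34 (adjusted p = 0.00033, SE 0.0606) and Serpinh1, the collagen chaperone of the endoplasmic reticulum, by 0.36 (adjusted p = 0.0445, SE 0.116). In PFF mice at 11% O2 none was called, against 0% of genes, and the median was 0.04. At 11% O2 in monomer mice 5 were called lower, against 2.55% of genes, with a median of -0.23. They were Chordc1 (-0.41), Dnajb4 (-0.32), the HSP70 partner Dnaja1 (-0.29), and the mitochondrial chaperonin genes Hspe1 (-0.29) and Hspd1 (-0.26). The list's median was -0.06 in the O2 comparison of PFF mice, with 0 called lower, against 0.142% of genes. In the interaction all 18 lay above 0, where 50.2% of genes lay below it, and 1 was called higher, against 1.09% of genes: Chordc1 at 0.37 (adjusted p = 0.0182, SE 0.0904). The lowest fold change on the list in any comparison was -0.41.

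Genes that act on heat shock factors or belong to neighbouring families moved less as lists. Of 10 relatives, regulators and partners of the factors, 1 was called in any comparison, Hsf5, higher by 0.61 (adjusted p = 0.0361, SE 0.202) at 11% O2 in monomer mice, where 4.68% of genes were called higher. Among 14 other HSP70 genes and co-chaperones, Hspa5, the HSP70 of the endoplasmic reticulum, fell by 0.46 in PFF mice at 21% O2 (adjusted p = 0.000292, SE 0.0813) and by 0.55 at 11% O2 in monomer mice (adjusted p = 3.25e-05, SE 0.0884). Hspa12b, an HSP70 relative expressed in endothelium, rose by 0.32 and 0.68 in the same comparisons. The median of the 14 was -0.03 and -0.01 there. Bag1, a nucleotide exchange factor, rose by 0.28 at 11% O2 in PFF mice, and Bag1 and Hspa5 each had an interaction of 0.48. Of 7 other small heat shock protein genes 3 passed the filter on low counts, and none of those was called in any comparison. Among 10 immediate early genes, which respond within minutes to neuronal activity and to handling, Nr4a1 fell by 0.32 in PFF mice at 21% O2, and Fos by 0.76 and Nr4a1 by 0.44 at 11% O2 in monomer mice. The summed immediate early level was 169 to 258 TPM in monomer and 146 to 251 TPM in PFF mice at 21% O2, and its part in the members' values was not tested.

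The members also varied together between mice of the same group. All 36 pairs of the 9 features were correlated over the 42 mice on log2 CPM (counts scaled to library size) with each group's mean removed, and p-values came from 100000 permutations within groups and were adjusted over the 36 pairs. The adjusted p was below 0.05 for 9 pairs, all positive. Of these, 8 were among the 21 pairs of chaperone features, whose median r was 0.37, and 1 was among the 15 pairs with Hsf1 or Hsf2, whose median was 0.11. The constitutive HSP70 and the HSP90 gave the closest pair, Hspa8 with Hsp90aa1 (Pearson's r = 0.85, Spearman's rho = 0.85, permutation p = 1e-05 and 1e-05, the smallest these permutations can give, adjusted p = 0.00018). It was 0.83 without the 2 mice farthest from the Hspa8 median.

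The inducible HSP70 varied most closely with its J-domain partner. The Hspa1 sum and Dnajb1 gave r = 0.70 (permutation p = 2e-05, adjusted p = 0.00024) and rho = 0.68 (permutation p = 3e-05), and r = 0.64 without the 2 mice farthest from the median. Within batches r was 0.86, 0.77 and 0.54. It was highest in PFF mice at 21% O2 (0.91), with 0.63 in monomer mice at 21% O2, 0.46 in monomer mice and 0.26 in PFF mice at 11% O2, and the differences between groups were not tested. Before correction, with batch means also removed, r was 0.79. In PFF mice at 21% O2 replicates 8 and 2 were the highest for the Hspa1 sum (89.9 and 88.8 TPM), for Dnajb1 (110.7 and 109.0 TPM) and for Hspb1 (41.5 and 36.3 TPM), and the highest for Bag3 as well (31.9 and 34.3 TPM). For Hsph1 they had 149.5 and 172.2 TPM, the latter the highest of the 12. They came from batches 2 and 1. These mice were picked out after the values were seen. Hsph1 linked both sets, with r = 0.70 to Hsp90aa1, 0.60 to Hspa8, 0.58 to the Hspa1 sum and 0.54 to Dnajb1 (permutation, adjusted p = 0.00018, 0.00153, 0.0031 and 0.00522).

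**Figure D4:**
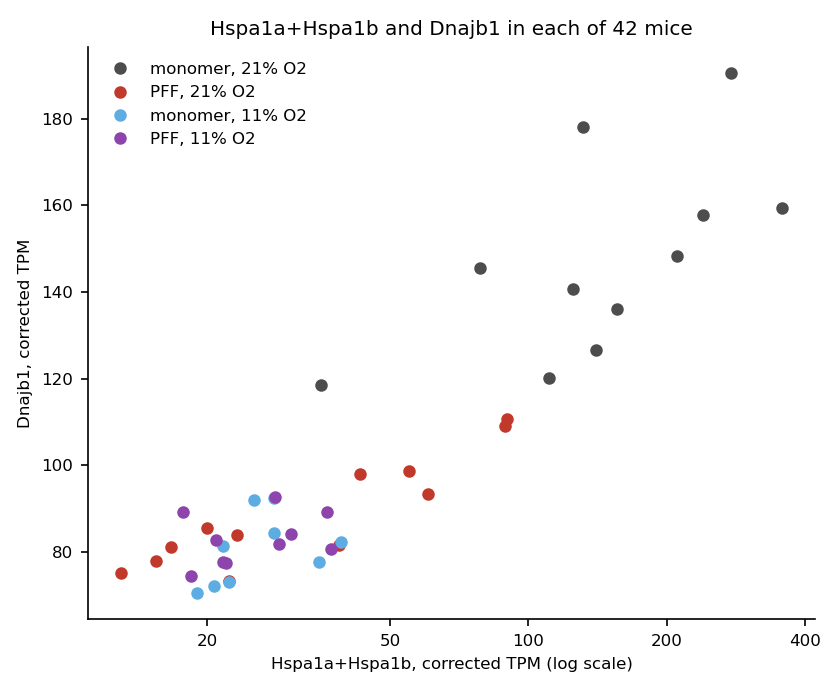
Batch-corrected TPM of Dnajb1 (y axis) against that of the Hspa1 sum (x axis, log scale) in 42 mice, with 1 point per mouse and groups marked by colour. Group means are not removed here, so the trend over all points also holds the differences between groups. The r of 0.70 in the text came from log2 CPM with each group's mean removed.

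Other pairs were less settled. Dnajb1 with Hspb1 gave r = 0.52 (permutation, adjusted p = 0.0035) and within batch 3 it was 0.02. Bag3 with Hspb1 gave r = 0.42 (permutation, adjusted p = 0.0388), but its Spearman value had an adjusted permutation p of 0.157. The factor Hsf2 with Hsp90aa1 gave r = 0.49 (permutation, adjusted p = 0.0035). Before correction this pair was at 0.34 (adjusted p = 0.143), and within batch 2 it was -0.14. Bag3 was at -0.21 with Hspa8 and -0.16 with Hsp90aa1, and before correction these pairs were at -0.52 and -0.49 and passed the threshold (adjusted permutation p = 0.0304 and 0.042). No pair of Hsf1 with a chaperone feature passed the threshold, and its r ranged from 0.03 with Hspb1 to 0.24 with Hsph1.

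**Figure D5:**
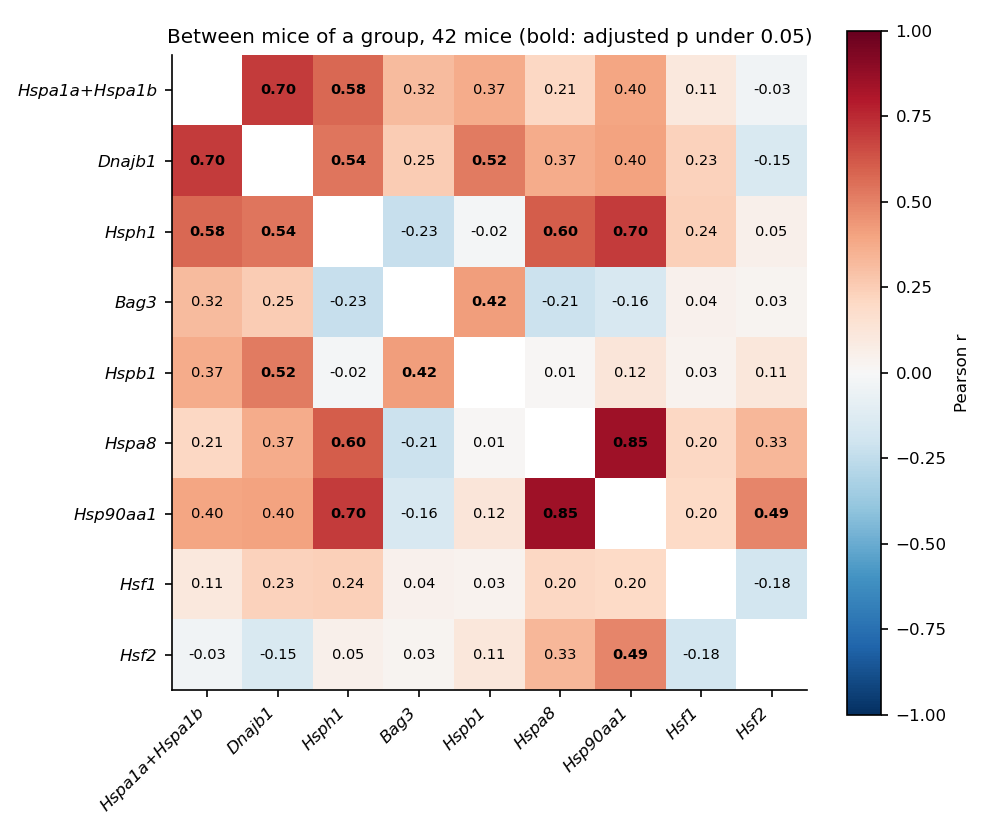
Pearson's r of each pair of the 9 features over 42 mice with group means removed (colour scale from -1 to 1). Hspa8, Hsp90aa1 and Hsph1 form the strongest block, with r of 0.60 to 0.85, and the Hspa1 sum pairs with Dnajb1 at 0.70.

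The genes outside the set that varied most like it were looked for with the mean z score of the 7 chaperone features, over the 42 mice with group means removed. Of 14829 genes 131 had r over 0.5, and the median was 0.0067. The highest were Ahsa2 (0.747), a homologue of the HSP90 activator AHA1, Slc5a3 (0.736), the myo-inositol transporter, Rbm12b2 (0.732), Dnaja1 (0.719) and Hspd1 (0.712). Before correction, with batch means removed as well, they had r of 0.72, 0.688, 0.572, 0.598 and 0.712. Hsf1 had r = 0.235 and Hsf2 r = 0.183 with the same score. These values are descriptions.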

How the data were processed

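Bulk poly(A) RNA-seq of the SN of 48 mice was used. The authors removed ribosomal reads, aligned with STAR 2.7.5a to mm10 with GENCODE vM24, removed duplicates with Picard 2.21.9 and counted with featureCounts 2.0.1 (multi-mapping reads at their primary alignment, no strand setting). The deposited counts are whole numbers per gene, and the deposited TPM values are the authors' length-scaled form of them. After leaving out 6 mice by PCA, the authors corrected the counts of 42 mice by ComBat-seq with injection and O2 as covariates, and both corrected tables were deposited. Such corrected counts carry the group model into the p-values.

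Groups came from the sample labels. The members and gene lists were chosen with earlier results of these data known. Corrected counts were tested with edgeR 4.0.16 (R 4.3.3): TMM, filterByExpr, 4 groups in 1 quasi-likelihood fit, Hspa1a and Hspa1b summed, Benjamini-Hochberg adjustment over all genes. SE is the log2 fold change over the square root of F. Pearson and Spearman correlations used log2 CPM with a prior count of 2 and permutations within groups (two-sided). Every member was named in each comparison, and of other lists the called genes with the smallest p, at most 5. Promoters came from RefSeq, and gene positions from GENCODE vM21 on GRCm38. The steps were tested on simulated data. Alternatives were DESeq2 1.42.0, its size factors, no filter, adjusted p alone, batch as a covariate before correction (42 and 48 mice), no batch term, single batches, a replicate block, only the groups compared, separate copies, limma 3.58.1 on log2(TPM + 1) with mean TPM of at least 0.1, and leaving out each mouse. Replicates are separate mice. The authors' counts have no molecular identifiers.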

Additional observations from a re-analysis of the deposited data

Results flagged for a closer look

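The injection changed 3 features differently at 11% and 21% O2, by the interaction term: the Hspa1 sum by 2.04, Dnajb1 by 0.77 and Hsph1 by 0.54 on the log2 scale. In each, the mice at 21% O2 differed between injections and the interval at 11% O2 included 0. Only batch 1 held all 4 groups, and within it 0 of 9 features were called, against 0.0745% of genes.

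The 6 mice that the authors left out gave 54 member values before correction, and 3 of them were above every kept monomer mouse at 21% O2. Hspb1 was at 128.8 TPM in 1 PFF mouse at 11% O2 (replicate 5, batch 2) and at 109.0 TPM in 1 monomer mouse at 21% O2 (replicate 10, batch 2), against 22.4 to 45.5 TPM in the kept monomer mice. Bag3 was at 40.8 TPM in 1 monomer mouse at 11% O2 (replicate 9, batch 3), against 23.4 to 39.8 TPM. For the Hspa1 sum and Dnajb1 no left-out mouse stood above the kept monomer mice. In the 18 combinations of feature and group with 4 to 10 mice, all at 11% O2, no single mouse stood apart from its group by Dixon's test. Both groups at 21% O2, with 11 and 12 kept mice, were too large for the critical values used and were not tested.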

How the results depend on the processing

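Shares of genes given with these counts are calls in either direction in the same fit. The members called lower in PFF mice at 21% O2 numbered 5, against 3.69% of genes. Leaving out each mouse in turn gave 4 to 5 members, with 402 to 599 genes called. The members numbered 3 with batch as a covariate in 48 mice (Bag3 and Hspb1 lost), against 2.61% of genes. They numbered 0 in batch 1 alone, which has 4 mice a group, against 0.0609% of genes. At 11% O2 in monomer mice the count of 4 became 8 by adjusted p alone, against 13.2% of genes. Without single mice it was 4 to 5, with 889 to 1288 genes called. It was 5 before correction without a batch term (7.87% of genes) and in batch 1 alone (1.98%). With batch as a covariate in 48 mice it was 4, against 5.07% of genes. Hspb1 was not called in that fit, so these were not the same 4 members. At 11% O2 in PFF mice the count of 0 became 1, the Hspa1 sum, in each of 3 fits before correction. These fits called 0.568%, 0.385% and 0.738% of genes (42 mice with and without batch, 48 mice with batch). The interaction count of 3 became 0 in batch 1 alone, against 0.0745% of genes. PFF at 11% O2 gave 0 throughout. The cause was not tested. No refit reversed a called member (0 of 647 values), and of 1805 refitted values of members not called 58 had the other sign, none called. Most of these refits left out 1 of the 42 mice, and adjusted p alone repeats the reported fit. A reversed sign was therefore unlikely from the outset, and the 0 says little about robustness. The 9 correlated pairs numbered 9 before correction, 7 of them positive, 11 on log2 TPM and 10 by Spearman's rho. Genes called moved from 547 to 9 (batch 1) and 1126 (adjusted p alone) for PFF at 21% O2, from 1072 to 653 (batch covariate, 42 mice), 292 (batch 1) and 1960 (adjusted p alone) for 11% O2 in monomer mice, from 86 to 57 (no batch term) and 6, 7 and 2 (batches 1, 2 and 3) in PFF mice, and from 314 (2.12%) to 1.38% and 1.02% of genes (batch covariate, 42 and 48 mice) and 11 (batch 1) in the interaction. For PFF at 11% O2 DESeq2 called 1 gene, and leaving out single mice gave 0 to 1.

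Replicate numbers are shared between groups, and the paper describes a randomized matched-pairs design without tying it to these numbers. The numbers showed little pairing: in PFF against monomer at 21% O2 the deviations of 11 same-numbered pairs had r of -0.38 to 0.30, 4 over 0.1, and 1 pair was best with its own number. Some same-numbered mice came from different batches, so this cannot show whether matched mice were alike. With the replicate number as a block 4 members were called there (Bag3 at -0.28, adjusted p = 0.0737), 5 at 11% O2 in monomer mice, 0 in PFF mice, 0 for PFF at 11% O2 and 3 in the interaction, with 459, 1123, 72, 0 and 291 genes called. Depth limits Hspb1 most, with 33 counts in the lowest mouse.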
